A study of Mus musculus with 11 samples.

Results

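The Zfp genes are mouse genes that carry a Zfp symbol followed by a number, most of which encode zinc finger proteins, and their promoter and gene-body methylation was measured in newborn pancreas. They were chosen by symbol alone, on chromosomes 1 to 19, which gave 345 genes on 19 chromosomes, of which 303 had a promoter among the 24391 promoters listed, 339 had a gene row among 25802 genes, and 297 had both. Of the 302 promoters with an annotated biotype, 10 belonged to antisense, pseudogene or other non-coding entries that share the name. DNA came from whole pancreata of wild-type C57BL/6N mice at postnatal day 0, whose dams were injected intraperitoneally once daily on embryonic days 14.5, 15.5 and 16.5 with either saline or amphetamine at 10 mg/kg, so that all mice shared the strain, the age and the injections. The Saline group held 6 mice (3 female, 3 male) and the Amphetamine group 5 mice (3 female, 2 male). The labels do not say which mice shared a dam, so the p-values below measure the spread between these mice only.

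Most Zfp proteins bind DNA through arrays of zinc fingers, and many also carry a KRAB domain, which recruits Trim28 (KAP1) and, through it, the histone methyltransferase Setdb1. Proteins of this kind are best known for keeping retroelements silent and for protecting methylated imprints in the early embryo. The genes multiplied by tandem duplication and stand in clusters, and in the typical KRAB zinc finger gene a long last exon encodes the whole finger array. A minority of genes with the Zfp symbol encode unrelated proteins, such as the mRNA decay factors of the Zfp36 family.

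Reduced representation bisulfite sequencing reads DNA next to the cut sites of MspI (CCGG) and TaqI (TCGA), so a promoter is measured at the CpG sites near such cuts. Methylation is given as the percent of reads that kept a cytosine at CpG sites, as a mean over mice with reads, and does not separate methylated from hydroxymethylated cytosine. A promoter was 1500 bp upstream to 500 bp downstream of the annotated start. Coverage, taken as the read total at a region's CpG sites, had a median of 232.3 per Zfp promoter in Saline mice and 283.3 in Amphetamine mice, against 208.2 and 258 over all tested promoters. Of these, 290 of the 303 Zfp promoters and 335 of the 339 gene bodies had a mean coverage of at least 10 and at least 3 mice with reads in both groups, and values below refer to these. Because the pancreas was taken whole, a different mix of cell types and a different methylation level within a cell type cannot be told apart.

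Directly upstream of their starts, Zfp genes were richer in CpG sites than the average gene. RefSeq starts (GRCm38.p6) were found for 249 of the 303 Zfp genes with a promoter row, and in the 250 bp upstream of 302 such starts the median was 13 CpG sites, against 6 over all 32851 starts. A CCGG site was present in 73.5% of the Zfp windows against 47.1% of all, a TCGA site in 25.5% against 18.5%, and at least 1 of these sites in 79.1% against 54.6%. All of these motifs read the same on both strands, both cut sites contain a CpG, and the cut sites cannot overlap each other. Over the whole promoter windows that were tested, Zfp promoters were not richer, with a median of 62 CpG sites. This compares with 62 over all promoters and 74 over those of autosomal protein-coding genes. The sequences below show the range, from the lowest to the most methylated promoters, and include the members that the comparisons between groups turn on. Each is the 250 bp that end just before the start, 5′ to 3′ on the gene's strand, with CpG sites in capitals. Zfp36l1 (chr12:80113014-80113263, minus strand) and Zfp281 (chr1:136624651-136624900, plus strand) have 10 and 19 CpG sites here, and promoter methylation of 0.282% and 3.38% in Saline mice.
Zfp36l1: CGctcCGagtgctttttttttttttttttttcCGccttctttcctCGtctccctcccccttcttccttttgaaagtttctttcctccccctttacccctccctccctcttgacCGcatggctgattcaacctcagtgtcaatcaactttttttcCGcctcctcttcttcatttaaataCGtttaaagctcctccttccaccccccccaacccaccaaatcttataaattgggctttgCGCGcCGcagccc
Zfp281: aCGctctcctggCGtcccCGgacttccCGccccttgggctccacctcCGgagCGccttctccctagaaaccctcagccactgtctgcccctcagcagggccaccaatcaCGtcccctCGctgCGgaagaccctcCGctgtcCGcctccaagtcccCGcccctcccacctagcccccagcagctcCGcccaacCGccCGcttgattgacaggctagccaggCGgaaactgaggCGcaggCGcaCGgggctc
Zfp42 (chr8:43307010-43307259, minus strand) and Zfp600 (chr4:146156577-146156826, plus strand) have 9 and 2 CpG sites here, and their promoters were methylated to 74.2% and 76.4%.
Zfp42: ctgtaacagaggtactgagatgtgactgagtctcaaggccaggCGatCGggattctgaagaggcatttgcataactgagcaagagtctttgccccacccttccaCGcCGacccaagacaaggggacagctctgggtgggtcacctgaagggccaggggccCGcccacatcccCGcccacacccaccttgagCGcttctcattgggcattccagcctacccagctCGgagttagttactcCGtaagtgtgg
Zfp600: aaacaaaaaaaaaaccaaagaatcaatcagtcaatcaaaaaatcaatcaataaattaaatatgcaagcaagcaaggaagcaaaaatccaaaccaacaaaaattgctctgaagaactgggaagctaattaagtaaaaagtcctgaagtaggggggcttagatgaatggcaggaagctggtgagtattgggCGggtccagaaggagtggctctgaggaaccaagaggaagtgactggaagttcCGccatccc
Zfp119a (chr17:55878954-55879203, minus strand) and Zfp119b (chr17:55949501-55949750, minus strand) belong to the same cluster and have 12 and 0 CpG sites here, and their promoters stood at 2.36% and 75.0%. The value of Zfp119b varied widely between Saline mice (SD 50 points), as described below.
Zfp119a: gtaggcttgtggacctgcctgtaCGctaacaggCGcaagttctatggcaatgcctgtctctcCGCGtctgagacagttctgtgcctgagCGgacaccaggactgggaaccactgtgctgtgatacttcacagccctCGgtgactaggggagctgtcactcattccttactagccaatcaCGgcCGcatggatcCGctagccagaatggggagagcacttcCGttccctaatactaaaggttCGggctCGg
Zfp119b: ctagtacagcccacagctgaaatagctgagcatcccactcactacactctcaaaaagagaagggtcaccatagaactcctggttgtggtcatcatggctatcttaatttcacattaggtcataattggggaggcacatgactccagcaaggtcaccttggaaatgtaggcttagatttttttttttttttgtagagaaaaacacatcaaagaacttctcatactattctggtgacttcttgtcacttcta
For Zfp775, the start used for the promoter table (chr6:48612930-48613179, plus strand) has 2 CpG sites upstream of it, while the RefSeq start (chr6:48601757-48602006, plus strand) has 18.
Zfp775, start of the promoter table: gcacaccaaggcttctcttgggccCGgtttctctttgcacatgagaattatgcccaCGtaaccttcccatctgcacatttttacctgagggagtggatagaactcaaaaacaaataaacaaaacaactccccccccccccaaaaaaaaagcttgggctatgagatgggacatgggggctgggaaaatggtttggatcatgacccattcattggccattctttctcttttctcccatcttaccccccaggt
Zfp775, RefSeq start: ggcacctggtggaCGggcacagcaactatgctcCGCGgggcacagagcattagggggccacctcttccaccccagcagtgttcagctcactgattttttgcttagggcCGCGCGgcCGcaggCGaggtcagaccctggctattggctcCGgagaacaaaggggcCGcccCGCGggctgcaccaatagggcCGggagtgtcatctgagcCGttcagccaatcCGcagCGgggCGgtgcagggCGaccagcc
Zfp141 (chr7:42505754-42506003, minus strand) and Zfp819 (chr7:43606919-43607168, plus strand) had the smallest p-values for treatment among the promoters.
Zfp141: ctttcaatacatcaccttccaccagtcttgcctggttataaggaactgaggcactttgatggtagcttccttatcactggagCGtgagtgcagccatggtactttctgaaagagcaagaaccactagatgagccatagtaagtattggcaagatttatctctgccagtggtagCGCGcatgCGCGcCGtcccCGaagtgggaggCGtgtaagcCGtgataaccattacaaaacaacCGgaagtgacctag
Zfp819: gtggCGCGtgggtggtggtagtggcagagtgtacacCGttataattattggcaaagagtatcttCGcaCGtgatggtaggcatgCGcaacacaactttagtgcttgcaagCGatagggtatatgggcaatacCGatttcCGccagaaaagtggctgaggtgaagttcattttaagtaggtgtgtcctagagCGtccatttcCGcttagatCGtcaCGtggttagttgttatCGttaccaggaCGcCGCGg

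Zfp promoters were mostly unmethylated in the pancreas of Saline mice. Their median methylation was 2.83% (quartiles 1.47% and 7.38%), against 6.50% over all 22727 tested promoters and 3.39% over the 14555 promoters of autosomal protein-coding genes. Methylation was at most 20% at 249 of 290 promoters (85.9%), against 62.4% of all promoters and 79.9% of the protein-coding ones. A further 34 promoters lay between 20% and 80%, and 7 (2.41%) lay above 80%, a level reached by 17.8% of all promoters and 6.36% of the protein-coding ones. In Amphetamine mice the promoters had a median of 2.78%, with 250 at or below 20%. Between Saline mice, the median SD was 2.44 percentage points at a Zfp promoter, 3.85 at all promoters and 2.66 at the protein-coding ones.

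Zfp promoters were mostly low also where no CpG island was annotated. An island overlapped 200 of the 290 promoters (69.0%), against 57.6% of all and 73.6% of protein-coding promoters. With an island, the median was 2.34% and no Zfp promoter exceeded 80%. Without an island, the 90 Zfp promoters still had a median of 5.38%, and 60 of them lay at or below 20%. Over all genes, promoters without an island had a median of 73.4% (n = 9634), and over protein-coding autosomal genes 43.3% (n = 3842).

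The bodies of the same genes were methylated. The median over whole Zfp genes was 40.8%, against 51.2% over all genes and 45.0% over protein-coding genes. A whole gene row includes the unmethylated start, so the 5000 bp tiles that lie inside a gene and do not touch its promoter were also used. These had a median of 84.9% over 220 Zfp genes and 80.4% over all 14989 genes with such a tile. Around the starts of protein-coding Zfp genes, the median tile fell from 79.7% at 5 kb upstream to 7.54% at the start and stood at 83.3% at 5 kb downstream. All protein-coding genes had 75.0%, 9.04% and 74.4% at these positions, and of the 11 positions plotted the gap was widest at 5 kb downstream.

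**Figure D1:**
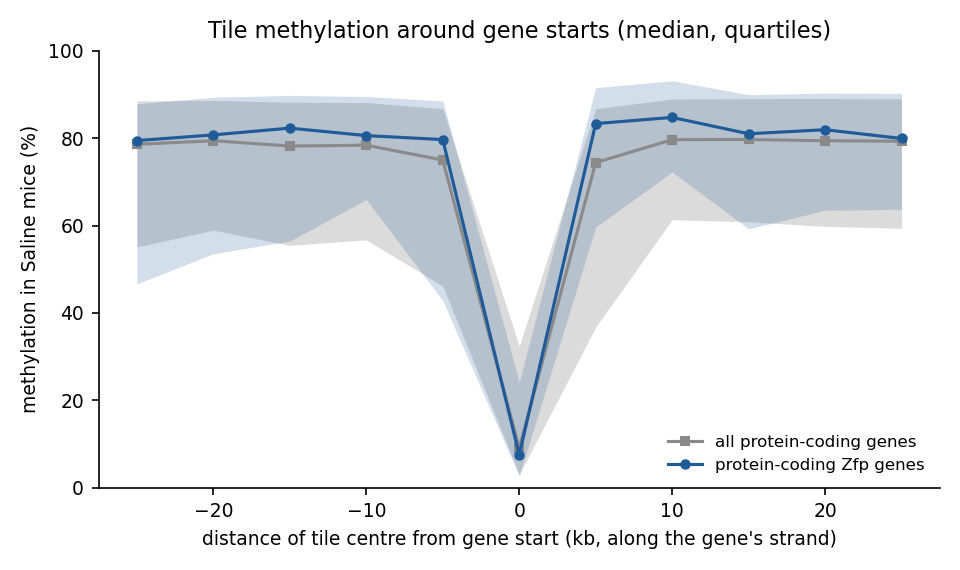
Median methylation of 5000 bp tiles in Saline mice (vertical axis, %) by the distance of the tile's centre from the gene start (horizontal axis, kb, along the strand), for protein-coding Zfp genes (blue circles) and all protein-coding genes (grey squares), with the quartiles over tiles as shading. Both lines dip at the start, to 7.54% and 9.04%, and at 5 kb downstream the Zfp line reaches 83.3% while the line of all genes is at 74.4%.

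Tiles at the last coding exon, which holds the finger array in most of these genes, were highly methylated. This exon made up a median of 85.2% of the coding sequence of a Zfp gene and 13.3% over all genes. Its median length was 1317.5 bp in Zfp genes and 162 bp over all genes. A tile of 5000 bp that touches it therefore also holds other sequence, which can lie past the gene's end. Tiles that touch the last coding exon had a median of 88.6% over 204 Zfp genes, against 81.6% over 10554 genes in all. In the 91 Zfp genes with tiles both at the last coding exon and elsewhere in the body, the tiles at this exon were higher in 62, with a median difference of 5.59 percentage points. Over all 6328 such genes they were higher in 3631, with a median difference of 3.12 points. Zfp genes that stand alone gave a difference of 7.21 points (34 of 43 higher) and clustered genes 1.05 points (22 of 41 higher).

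Promoter and gene body were compared gene by gene for the 284 Zfp genes tested for both. In 193 of them (68.0%) the promoter of every Saline mouse was below the gene body of every Saline mouse, a pattern shared by 52.6% of all genes and 64.9% of protein-coding ones. The mean was lower at the promoter in 254 genes (14840 of 19294 over all genes). The median gap was 24.8 percentage points, against 17.5 over all genes and 24.5 over protein-coding ones. The last 500 bp of the promoter lie inside the gene, so the 2 values share some reads. Against the tiles that avoid the promoter, the promoter was lower in 178 of 185 Zfp genes, with a median gap of 78.2 points. Over all genes this held in 10647 of 11488, with a median gap of 72.7 points (74.1 over protein-coding genes). Of the 162 Zfp genes with a promoter at or below 20% and such a tile, 103 (63.6%) had a body above 80%, against 52.1% of all such genes.

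The opposite order, with every Saline mouse higher at the promoter, was found in 7 Zfp genes (2.46%), against 3.53% of all genes. These were Zfp931, Zfp61, Zfp36, Zfp473, Zfp511, Zfp672 and Zfp759. Zfp473 was the extreme, with 100% at the promoter in all 5 Saline mice with reads and 9.99% ± 3.75 (SD, n = 6) over the gene. Zfp931 had 17.1% ± 6.58 (SD, n = 6) at the promoter and 0% over the gene in all 6 mice. The lowest gene bodies of the family, all listed at 0% in Saline mice, were those of Zfp931, Zfp330, Zfp759 and Zfp712. Their coverage was low, with a mean of 10 for Zfp330, 35 for Zfp759, 43.2 for Zfp712 and 88.2 for Zfp931.

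**Figure D2:**
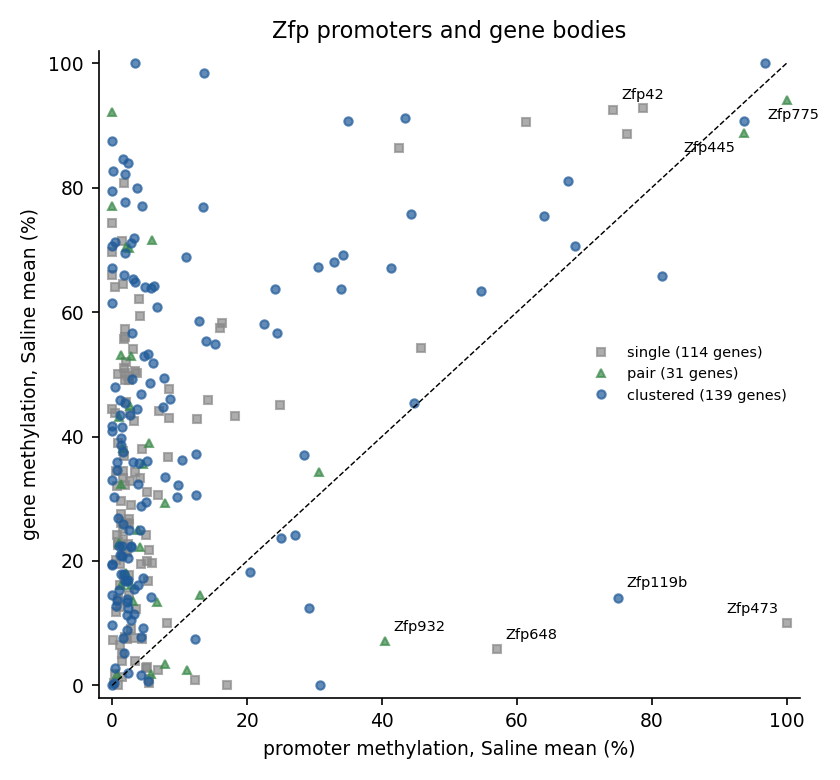
Mean promoter methylation (horizontal axis, %) against mean gene methylation (vertical axis, %) in Saline mice for the 284 Zfp genes tested for both, by whether the gene stands alone (grey squares), in a pair (green triangles) or in a cluster (blue circles), with the line of equal values dashed. Most genes line up at the left edge over the whole height of the plot, and Zfp473, Zfp119b, Zfp648 and Zfp932 lie far below the line.

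Of the 7 Zfp promoters above 80%, 6 were windows that do not contain the RefSeq start of their gene. Among the highest were Zfp775 and Zfp473 at 100%, Zfp869 at 96.8% ± 7.90 (SD, n = 6), Zfp445 at 93.7% ± 9.37, Zfp781 at 87.3% ± 5.76 and Zfp229 at 81.5% ± 5.63. The next below 80% was Zfp612 at 78.8% ± 4.23. A RefSeq start on the same strand could be matched by symbol to 239 of the 290 promoters, and it lay inside the window in 222 and outside in 17. Of the promoters with the RefSeq start inside, 0 of 222 exceeded 80%, while 6.44% of the 11346 such promoters over all genes did. Of those with the start outside, 6 of 17 did, against 186 of 1063 (17.5%) over all genes.

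At the RefSeq starts themselves, methylation was low in these genes, apart from Zfp229. For Zfp473, whose RefSeq start lay 2.433 kb downstream of the start in the promoter table, the tile at the RefSeq start had 4.27% ± 2.58 (SD, n = 6). For Zfp869 (6.178 kb upstream) it was 1.71% ± 2.78, for Zfp445 (3.878 kb upstream) 1.79% ± 1.78, and for Zfp781 (19.613 kb upstream) 3.65% ± 3.58. For Zfp775 (11.173 kb upstream) the tile had 23.3% ± 7.64 and the CpG island at the start 4.05% ± 3.31, in the window with 18 CpG sites printed above. Zfp229 had 67.2% ± 7.82 at a RefSeq start 2.929 kb downstream. Over the 12 genes with a start outside the window and a CpG island within 500 bp of the RefSeq start, the median was 23.7% in the promoter window and 1.91% at the island, which was at or below 20% in 12 of 12. Over all genes, 93.5% of promoters with an island were at or below 20%. For the 16 genes with a tile at that start, the medians were 11.9% and 4.62%. The tile was lower than the window in 9 of 16 and at or below 20% in 12. It was higher at Zfp652 (1.31% in the window, 76.6% in the tile) and Zfp629 (0% and 60.7%), among others. Coverage was thin in the most methylated windows, with a mean of 20 reads in Saline mice for Zfp775, 11.5 for Zfp869 and 36.8 for Zfp445, but 205 for Zfp229, and its part in these levels was not tested.

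**Figure D3:**
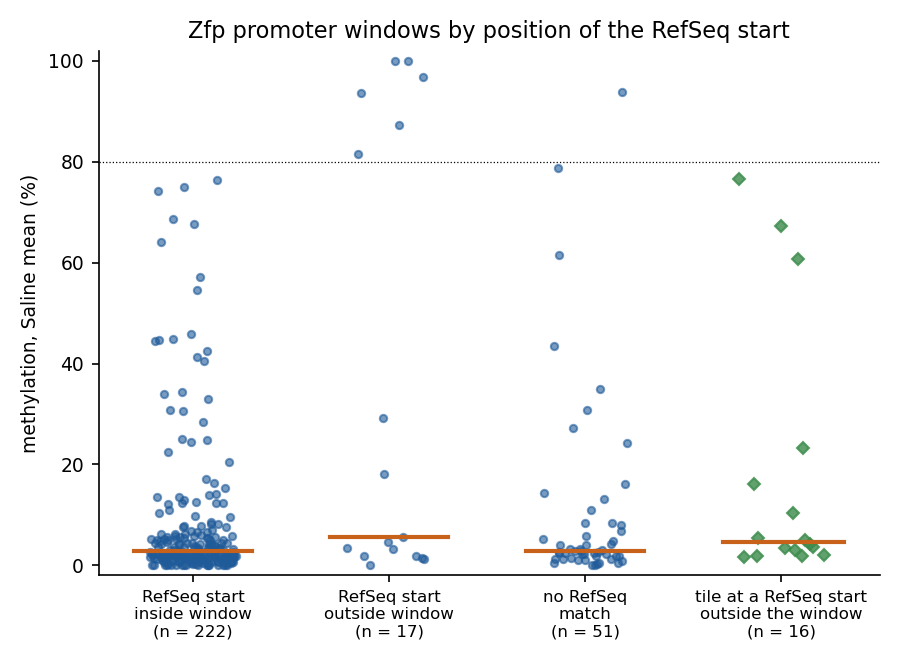
Saline mean methylation (vertical axis, %) of each tested Zfp promoter window by whether the RefSeq start lies inside it (222 promoters), outside it (17) or was not matched (51), and, as green diamonds, of the tile at the RefSeq start for 16 of the 17 genes with the start outside. Orange bars are medians and the dotted line marks 80%, above which there are 0, 6 and 1 promoters.

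Some Zfp promoters were methylated although the window contains the RefSeq start. Zfp42 (Rex1), a marker of pluripotent cells, stood at 74.2% ± 16.5 in Saline mice, with a lowest mouse of 47.5% and a highest of 86.9%. Zfp600 stood at 76.4% ± 18.5 (46.9% to 100%), Zfp874b at 68.6% ± 23.7, Zfp345 at 67.6% ± 24.8, Zfp658 at 64.0% ± 9.64 and Zfp820 at 54.6% ± 13.1. Zfp119b had a mean of 75.0% in the 4 Saline mice with reads, which ranged from 0% to 100% at a mean coverage of 26.8. However, the tile at its RefSeq start had 18.1% ± 8.46 (SD, n = 6). Zfp648 had 57.1% ± 31.9 (SD, n = 5) in the window and 9.92% ± 5.80 (SD, n = 6) in the tile at the start. In the other genes named here, that tile lay between 54.6% and 82.0%. Of these promoters, Zfp658 had the highest mean coverage, at 215, and the part of coverage in the spread between mice was not tested.

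Clustered Zfp genes had higher median methylation than Zfp genes that stand alone, by 0.83 percentage points at the promoter and 11.4 points over the gene. A cluster was defined as at least 3 members with neighbouring starts at most 250 kb apart, which placed 167 genes in 25 clusters, left 138 alone and 40 in pairs. Chromosome 7 held 84 members, chromosome 17 held 43 and chromosome 13 held 33. The median promoter had 3.25% in clusters (n = 140), 3.95% in pairs (n = 34) and 2.42% alone (n = 116), and 26 of 140 clustered promoters exceeded 20% against 10 of 116 alone. The median gene had 45.8% in clusters and 34.5% alone, and the tiles inside genes 87.5% and 82.1%. Clustered promoters also had fewer CpG sites (median 54 against 76), fewer islands (61.4% against 77.6%) and lower coverage (185.3 against 294.8). Split by island, the promoter medians were 2.42% in clusters against 2.0% alone with an island, and 4.94% against 8.44% without. The order of clustered and single promoters therefore turned among those without an island, and the part of CpG number and coverage was not tested. Neighbouring genes of a cluster are related copies, and 50 bp reads from near-identical copies can be misplaced or lost, so clustered members were not treated as independent and no test was run.

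Among the 14 clusters with at least 5 members, which held 128 genes, the median promoter was below the median gene in 14 of 14, and in 25 of 25 clusters of any size. The largest, from Zfp712 to Zfp273 on chromosome 13, held 21 genes with a median promoter of 5.07% and a median gene of 64.3%. The clusters from Zfp677 to Zfp946 and from Zfp871 to Zfp414 on chromosome 17, with 14 genes each, had median promoters of 1.60% and 2.27% and median genes of 46.2% and 38.0%. The 14 genes from Zfp84 to Zfp146 on chromosome 7 gave 3.36% and 63.9%. The cluster from Zfp180 to Zfp575 on chromosome 7 had the highest median promoter of the 14, at 20.3%, with 5 of its 10 promoters above 20%. In contrast, no promoter exceeded 20% in the clusters from Zfp786 to Zfp746 on chromosome 6 (8 genes, median gene 21.4%) and, on chromosome 7, from Zfp628 to Zfp580 (6 genes, 30.3%), from Zfp787 to Zfp28 (6 genes, 71.3%), from Zfp329 to Zfp446 (5 genes, 30.3%) and from Zfp60 to Zfp850 (5 genes, 79.5%). A single promoter did so in the cluster from Zfp871 to Zfp414 named above. The same held from Zfp354c to Zfp354a on chromosome 11 and from Zfp553 to Zfp629 on chromosome 7. It also held on chromosome 9, from Zfp560 to Zfp846 and from Zfp653 to Zfp810. The median genes of these clusters lay between 25% and 45.3%.

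**Figure D4:**
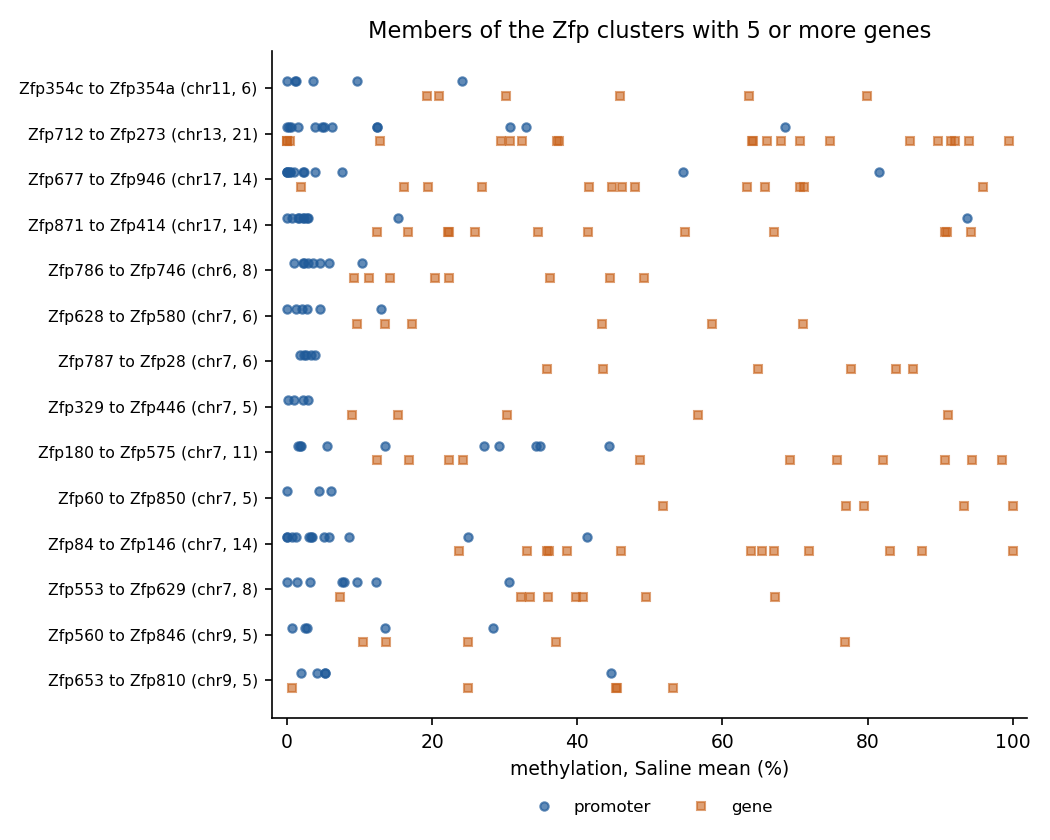
Saline mean methylation (horizontal axis, %) of every tested promoter (blue circles) and gene (orange squares) in the 14 clusters of at least 5 Zfp genes, with the chromosome and the number of genes beside each name. Promoters gather near 0 while genes spread over the whole axis, and the cluster from Zfp180 to Zfp575 has 5 promoters above 20%.

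Members with a known role were taken as a list of 24 genes, of which 22 had a tested promoter and 19 of these lay at or below 20%. The imprint protectors could be followed only in part: Zfp57, which binds methylated imprinting control regions, had no tested promoter and a gene body of 26.3% ± 9.70 (SD, n = 6), and the promoter window of Zfp445, which shares that function, missed its RefSeq start as described above. Of the silencers of retroelements and of early embryonic genes, Zfp809 had a promoter of 1.96% ± 3.41, Zfp819 2.14% ± 2.40 and Zfp568 5.79% ± 4.73, whereas Zfp932 had 40.5% ± 17.3 at a mean coverage of 41.5. The mRNA decay factors Zfp36, Zfp36l1 and Zfp36l2 had promoters of 12.3%, 0.282% and 6.85%, and their short gene bodies were as low, between 0.376% and 2.44%. Besides Zfp42, the genes tied to pluripotency were low, with 3.38% for Zfp281, 2.50% for Zfp143, 8.12% for Zfp296 and 1.40% for Zfp322a.

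Regulators of fat cell fate had low promoters and bodies in the middle of the range. Zfp423 had 3.40% ± 0.813 at the promoter and 50.6% ± 3.58 over the gene, at a mean coverage of 1115 and 4762 in Saline mice. Zfp521, Zfp467 and Zfp516 had promoters of 3.28%, 5.53% and 2.78% and genes of 42.5%, 39.0% and 52.9%. The neural genes were alike, with promoters of 18.2% for Zfp536 (whose RefSeq start lies outside the window, 3.889 kb downstream of the start used, with 4.97% in the tile there), 1.93% for Zfp462, 7.88% for Zfp335 and 3.65% for Zfp804a and genes between 29.3% and 57.3%. Zfp703, a growth-related cofactor, had 3.22% at the promoter and 7.63% over the gene.

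No Zfp promoter or gene body passed the thresholds for a difference between Amphetamine and Saline mice. The comparison asks whether exposure of the dam altered methylation in the newborn's pancreas. In the limma test no Zfp promoter had a Benjamini-Hochberg adjusted p under 0.05 (0 of 290; 0% of all 22727), and the smallest adjusted p was 0.963. At an unadjusted p under 0.05 there were 8 Zfp promoters, 6 higher and 2 lower in Amphetamine mice (2.76%, against 4.05% of all promoters), of which 1 differed by more than 10 points (1.79% of all promoters did both). For gene bodies no adjusted p was under 0.05 (0 of 335; 0% of all 24729, smallest 0.993), and 9 had an unadjusted p under 0.05, 5 higher and 4 lower (2.69%, against 4.27% of all genes), of which 3 differed by more than 10 points (1.71% of all genes did both). The median difference between Amphetamine and Saline was 0 percentage points over Zfp promoters, with 140 higher (49.1% of all promoters were), 141 lower and 9 equal, and 0.05 points over gene bodies, with 171 higher (48.1% of all genes were) and 163 lower. Clustered promoters had a median difference of 0 points (67 higher, 68 lower) and single ones of 0.03 points (59 higher, 55 lower). For gene bodies these medians were 0.47 points in clusters (91 higher, 71 lower) and -0.18 points alone (59 higher, 77 lower). The 95% interval of a single promoter's difference had a median half-width of 3.66 points and that of a gene body 7.77 points. Even before adjustment, shifts below these sizes were not detectable at a typical member. The thresholds also need an adjusted p under 0.05 and a difference above 25 points, so larger shifts could go uncalled too.

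Large differences were rare and fell on thinly covered promoters. A difference above 10 percentage points was seen at 15 Zfp promoters (5.17%, against 11.4% of all), whose median coverage in Saline mice was 62.2, against 244.7 at the other Zfp promoters. The part of coverage in this was not tested. The differences ran from -24.5 points at Zfp445 (93.7% ± 9.37 in Saline, 69.2% ± 36.5 in Amphetamine mice) to 31.7 points at Zfp27 (41.3% ± 33.5 and 73.0% ± 19.2). Neither reached an unadjusted p under 0.05. Gene bodies differed by more than 10 points in 20 genes (5.97%, against 8.51% of all).

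The promoter with the smallest p was that of Zfp141 (chr7:42505227-42507226), which was higher in Amphetamine mice. It was 0% in all 6 Saline mice, at a mean coverage of 54.8, and between 0.521% and 6.67% in the 5 Amphetamine mice, with a mean of 3.94%. It was the only Zfp promoter whose groups did not overlap (0.427% of all promoters did not), and the difference of 3.94 points had a 95% interval of 1.75 to 6.13 (limma, unadjusted p = 0.00248, adjusted p = 0.963). Zfp819, which is known to repress endogenous retroviruses, had 2.14% in Saline mice (0% to 5.15%) and 9.66% in Amphetamine mice (4.96% to 15.3%). The ranges met only at their edges, and the difference of 7.52 points had an interval of 2.91 to 12.1 (limma, unadjusted p = 0.00459). Next among the promoters with a higher mean in Amphetamine mice were Zfp94 (1.83% to 7.06%, unadjusted p = 0.0107), Zfp667 (2.33% to 5.58%, unadjusted p = 0.0125), Zfp281 (3.38% to 6.21%, unadjusted p = 0.0316) and Zfp114 (34.9% to 59.2%, unadjusted p = 0.0472), with the Saline mean before the Amphetamine mean. Zfp783 (2.23% and 5.17%) and Zfp334 (5.86% and 14.5%) had p-values of 0.0531 and 0.0729.

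Of the promoters with a lower mean in Amphetamine mice, Zfp513 had the smallest p, at 8.28% in Saline mice (6.67% to 9.52%) and 5.50% in Amphetamine mice (3.78% to 7.91%). The difference of -2.78 points had an interval of -4.71 to -0.85 (limma, unadjusted p = 0.0094). Zfp560 followed at 13.4% and 5.10% (limma, unadjusted p = 0.0487), and the ranges of both genes overlapped between groups. Zfp385a (4.15% and 1.62%), Zfp58 (3.84% and 0%), Zfp775 (100% and 87.4%), Zfp280b (24.8% and 19.7%), Zfp703 (3.22% and 1.86%) and Zfp236 (30.7% and 26.0%) had unadjusted p-values between 0.0658 and 0.112. All 16 promoters named here had an adjusted p of 0.963. The difference of the gene body had the sign of that of the promoter in 10 of the 16, and in 171 of all 284 genes with both. Promoter and gene values share some reads, so these signs are not independent.

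**Figure D5:**
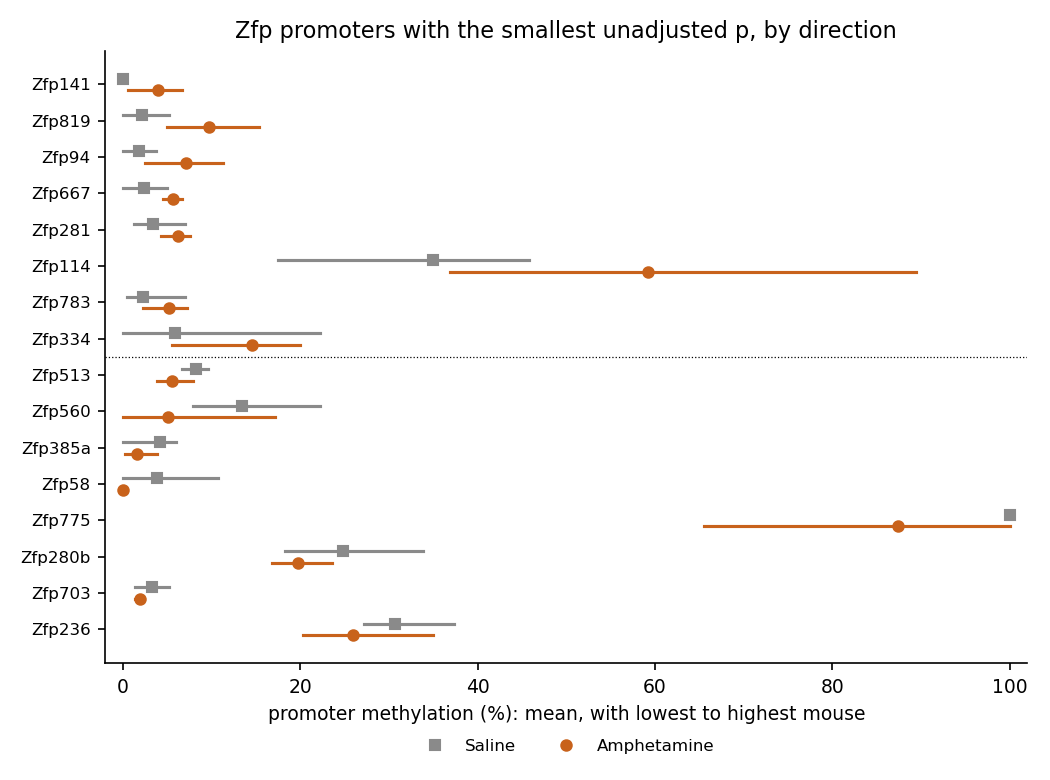
Methylation (horizontal axis, %) of the 8 Zfp promoters with the smallest unadjusted p among those higher in Amphetamine mice (above the dotted line) and the 8 among those lower (below it), with points for the means and lines from the lowest to the highest mouse. Saline (grey squares) is the mean of 6 mice and Amphetamine (orange circles) of 5, or of 4 for Zfp775, and only Zfp141 has ranges that do not meet.

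Among gene bodies, Zfp397 had the smallest p, with 2.87% ± 1.43 in Saline mice (0.126% to 4.30%) and 7.40% ± 1.64 in Amphetamine mice (5.19% to 9.09%). It was the only Zfp gene body whose groups did not overlap (0.311% of all genes did not), with a difference of 4.52 points (limma, unadjusted p = 0.00422, adjusted p = 0.993). The means of Zfp658 (75.5% and 89.8%), Zfp112 (69.2% and 81.2%) and Zfp511 (0.447% and 3.11%) were also higher in Amphetamine mice, with unadjusted p-values between 0.0216 and 0.0289. Those of Zfp617 (15.5% and 10.9%), Zfp821 (23.1% and 12.4%), Zfp750 (90.6% and 84.4%) and Zfp280b (45.1% and 38.4%) were lower, with unadjusted p-values between 0.0246 and 0.037.

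A single Zfp region differed between the sexes after adjustment, in a gene body. The body of Zfp809 (chr9:22225714-22243197), whose product silences retroviruses in embryonic cells, had 36.0% ± 4.17 in the 6 females (31.5% to 42.5%) and 56.8% ± 7.97 in the 5 males (47.6% to 67.2%). The ranges did not overlap (in 0.178% of all genes every female was below every male), and the difference of -20.8 points had a 95% interval of -28.7 to -12.9 (limma, adjusted p = 0.0407). It was the only Zfp gene body with an adjusted p under 0.05 (1 of 335; 0.385% of all 24665), and at a difference under 25 points it did not pass the full thresholds (0 of 335; 0.195% of all). Its promoter had 4.12% in females and 5.56% in males, and the gene body stood at 45.5% in Saline and 45.3% in Amphetamine mice. At an unadjusted p under 0.05 there were 22 Zfp gene bodies (6.57%, against 6.5% of all), of which 10 differed by more than 10 points (3.28% of all genes did both). At an adjusted p under 0.1 it was still 1 (0.511% of all). In either direction, the sexes did not overlap in 3 of 335 Zfp gene bodies (0.896%), of which 2 were higher in females. Over all 24665 genes, which include the X chromosome, this held in 257.

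No Zfp promoter differed between the sexes at an adjusted p under 0.05 in the limma test (0 of 290; 0.628% of all 22623), and 11 did at an unadjusted p under 0.05 (3.79%, against 6.14% of all), of which 3 differed by more than 10 points (3.36% of all did both). The full thresholds were passed by 0 Zfp promoters (0.367% of all), and an adjusted p under 0.1 was reached by 1 (0.937% of all). This was Zfp787, at 1.77% ± 0.615 in females (0.868% to 2.75%) and 5.72% ± 1.46 in males (4.12% to 7.52%). Its difference of -3.94 points had an interval of -5.65 to -2.24 (limma, adjusted p = 0.0587). With Zfp652os (1.34% and 3.46%) and Zfp367 (2.65% and 6.21%), it was among the 3 Zfp promoters whose females all lay below the males (0.23% of all promoters). At 0 Zfp promoters did all females lie above the males. In either direction, the sexes did not overlap at 3 of 290 Zfp promoters (1.03%), against 354 of all 22623, which include the X chromosome. Zfp46 had 15.6% in females and 63.8% in males, with ranges that overlapped. Higher in females, at unadjusted p-values between 0.0156 and 0.0242, were Zfp523 (3.36% and 0.798%), Zfp954 (33.6% and 13.3%), Zfp866 (3.30% and 0.28%) and Zfp287 (5.86% and 1.80%). Each sex held mice of both treatments, and the tables of the 2 comparisons group the same 11 mice.

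The proteins that work with KRAB zinc fingers were looked at as a list fixed for this purpose. Of 17 genes, 16 were found, with 29 tested promoters and gene bodies, of which 0 passed an adjusted p under 0.05 for treatment in the limma test and 1 had an unadjusted p under 0.05, a level reached by 4.05% of all promoters and 4.27% of all genes. This was the body of Uhrf1, which guides maintenance methylation. Markers of the cell types that a whole pancreas can hold (acinar, endocrine, mesenchymal, blood and liver genes) gave 21 tested regions, of which 0 had an unadjusted p under 0.05 for treatment. Methylation alone does not name a cell type, so the labelled tissue could not be checked against its markers here.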

How the data were processed

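Reduced representation bisulfite libraries (MspI and TaqI, single reads of 50 bp) of 11 pancreata were aligned by the authors with Bismark to mm10 (per the labels and the study's methods), and RnBeads summarized CpG sites per promoter, gene, CpG island and 5000 bp tile. The deposited tables hold, for each region and each group, the mean, SD, lowest and highest methylation fraction over mice, printed here as percent, the number of mice with reads, and the mean and lowest coverage as read signal summed over the sites of a region. Values per mouse were not used here. The authors' own comparison columns (differences, quotients, p-values and ranks) were not used.

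From the deposited means, SDs and numbers of mice, a two-sided moderated test was computed with limma 3.58.1 in R 4.3.3 (squeezeVar over each whole table, Benjamini-Hochberg adjustment over the whole table), after a filter of mean coverage of at least 10 and at least 3 mice with reads in both groups. This replaces a fit to values per mouse. The call rule, which the study states for binned CpG sites, was applied here to promoters and genes: adjusted p under 0.05, fold above 1.5 and a difference above 25 percentage points, with an offset of 0.01 for the fold added here. The test had no sex term in the treatment comparison, because the group summaries hold both sexes. The script was checked on simulated data. A coverage of 10 leaves a coarse fraction, and intervals cover the spread between mice only.

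Clusters, CpG counts, exons and tile positions came from the tables' coordinates, GRCm38 and GENCODE M21, in which 338 of 339 genes were found, and 250 bp start sequences from RefSeq (GRCm38.p6), in which 281 of 345 genes were found. The genes named for treatment were the 8 promoters and 4 gene bodies with the smallest p in each direction, for sex 4 promoters in each direction, and beyond these the 8 highest promoters (1 of them is not reported here), the 3 lowest gene bodies (plus Zfp712, tied at 0), the clusters of at least 5 genes and members of known role. Zfp809 for sex, Zfp27, the genes with the promoter above the body and those methylated in a window that contains the RefSeq start were named after their values were seen. The genes and all lists were chosen with earlier results of these data known. Alternatives were another coverage minimum, reads in all mice, a mean-variance trend, an arcsine scale, other cluster distances, other cut-offs and other gene bodies.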

Additional observations from a re-analysis of the deposited data

How the results depend on the processing

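No paired analysis was possible because the labels give the groups no shared replicate numbers and the tables hold group summaries, and leaving out each mouse in turn was not run because it needs values per mouse. The counts of Zfp regions past the full thresholds were 0 for treatment and for sex, in promoters and in gene bodies, under every filter, prior and scale tried. They depend on the rule. For treatment, an unadjusted p under 0.05 gave 8 promoters and 9 gene bodies, and with a difference above 10 points 1 and 3. For sex, an adjusted p under 0.05 gave 1 gene body, an adjusted p under 0.1 gave 1 promoter and 1 gene body, an unadjusted p under 0.05 gave 11 promoters and 22 gene bodies, and with a difference above 10 points 3 and 10. The 7 promoters above 80% became 17 above 50%, and 0 with the RefSeq start inside the window, an alternative chosen after seeing the data. The median gene body of 40.8% became 84.9% over tiles that avoid the promoter.

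On the arcsine scale, 29 Zfp promoters instead of 8 had an unadjusted p under 0.05 for treatment (1846 instead of 920 over all promoters). There the adjusted p of Zfp141, whose Saline SD is 0, was 0.0489, against 0.834 to 0.976 under the other alternatives. That of Zfp787 for sex became 0.0374 on the arcsine scale and 0.0444 with the trend. Zfp809 kept an adjusted p between 0.0333 and 0.0439 under the 6 alternatives run. The median Zfp promoter lay between 2.76% and 2.96%, and the gap between clustered and single genes between 0.787 and 2.55 points at promoters and between 5.40 and 11.5 points over genes. The promoter was below the gene body in 193 of 284 genes, in 150 of 219 with the RefSeq start inside the window, in 196 of 292 with no coverage minimum and in 176 of 185 with tile bodies. The last count followed a looser rule, in which the highest Saline mouse at the promoter was set against the Saline mean of the tiles. Of 271 values recomputed, the counts and medians moved in 14 and stayed in 65. A count moved if it changed by more than 1.5-fold, or at all from 0, and a median if it changed by at least the median SD between mice. The other values were differences of named genes. Their direction could not change, because each alternative compares the same group means. Depth limits the members most where methylation is high: the median coverage of the promoters above 80% was 36.8 in Saline mice.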

Other observations

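Zfp genes on the X chromosome lie outside the set described above. Of 8 such genes, 5 had a tested promoter, and all 5 had a higher mean in females, at an unadjusted p under 0.05 in the limma test, a level reached by 6.14% of all promoters. At Zfp185 the promoter had 37.7% ± 8.87 in the 6 females and 5.95% ± 2.76 in the 5 males (limma, adjusted p = 0.0059), and its gene body 29.9% ± 8.33 and 1.22% ± 1.96 (limma, adjusted p = 0.00743). The other promoters did not pass the adjustment, with 31.7% and 1.11% at Zfp275 (limma, adjusted p = 0.162), 27.0% and 8.64% at Zfp280c, 20.5% and 2.09% at Zfp449 and 53.9% and 30.2% at Zfp36l1-ps. Of the 7 tested gene bodies, 5 had a higher mean in females and 2, Zfp182 and Zfp36l3, a lower one. For treatment, none of these promoters or gene bodies had an unadjusted p under 0.05 in the limma test (0 of 5 and 0 of 7), while 3 of the 5 promoters had a higher mean in Amphetamine mice.

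Zfp600 and the clustered genes Zfp874b and Zfp345 had methylated promoters with a wide range between Saline mice, from 46.9%, 37.5% and 31.4% in the lowest mouse to 100%, 96.1% and 91.7% in the highest. In Amphetamine mice the ranges were 73.6% to 100%, 43.7% to 65.4% and 63.4% to 92.1%.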
